A study of Rattus norvegicus with 6 samples.

Results

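The activator protein 1 (AP-1) genes described here are the 10 rows of the deposited table whose gene identifier is exactly Fos, Fosb, Fosl1, Fosl2, Jun, Junb, Jund, Atf3, Batf or Maff, out of 18286 genes. The rule picks them by name, but it was drawn up with earlier results of these libraries known, and all 10 were present and passed the filter on low values. The libraries are RNA-seq profiles of RBL-2H3, a clonal line from a rat basophilic leukemia that bears FceRI, the high-affinity receptor for IgE, and stands in for mast cells. There were 3 control libraries, whose treatment label is none, and 3 libraries of cells labelled DHC, for dihydrocoumarin, a lactone related to coumarin. All 6 samples carry the same protocol, in which anti-dinitrophenyl IgE was given at 50 ng/ml over 12 h and DNP-HSA, the matching antigen, at 100 ng/ml over 4 h. DHC's dose and time of exposure are absent from the labels, and nothing beyond the shared protocol says whether the control cells received IgE and antigen, so each comparison below is DHC against control as labelled. Whether replicates were separate cultures is not said, and the p-values thus reflect only how far these libraries scatter, which could be technical scatter.

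AP-1 is a family of paired transcription factors that share a basic leucine zipper (bZIP), in which the zipper holds the partners together and the basic stretch contacts DNA. JUN proteins can pair with themselves, whereas FOS proteins need a partner, usually a JUN protein. ATF3, BATF and the small MAF protein MAFF belong to neighbouring bZIP groups and pair with JUN, FOS or other MAF-related proteins. In mast cells, crosslinking of the IgE receptor activates MAP kinases that raise FOS transcription and phosphorylate JUN, and AP-1 together with NFAT acts at cytokine genes.

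Upstream sequences of the members were compared because 8 of them fell together with DHC. RefSeq promoter entries on build GRCr8 matched 7 of the 10 members by symbol. Fos, Jun and Atf3 had no match, so their upstream bases were not searched. The 250 bases before the annotated start lay outside the gene's own span for 6 of the 7, the exception being Fosb. The 4 shown are that of Fosl2, the member with the largest fall on the log2(RPKM + 1) scale, and those of the 3 members with a match to the CRE, AP-1, serum response or NF-kB site. Capitals mark the match: the cyclic AMP response element (CRE) TGACGTCA in Jund and Maff, and the NF-kB site in Batf.
Fosl2, chr6:30039270-30039519, minus strand: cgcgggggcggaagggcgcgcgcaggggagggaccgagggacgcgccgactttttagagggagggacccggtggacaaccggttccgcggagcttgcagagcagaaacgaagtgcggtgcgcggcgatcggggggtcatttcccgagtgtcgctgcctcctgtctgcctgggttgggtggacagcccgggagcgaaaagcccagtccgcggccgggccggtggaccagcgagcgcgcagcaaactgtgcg
Jund, chr16:18769772-18770021, minus strand: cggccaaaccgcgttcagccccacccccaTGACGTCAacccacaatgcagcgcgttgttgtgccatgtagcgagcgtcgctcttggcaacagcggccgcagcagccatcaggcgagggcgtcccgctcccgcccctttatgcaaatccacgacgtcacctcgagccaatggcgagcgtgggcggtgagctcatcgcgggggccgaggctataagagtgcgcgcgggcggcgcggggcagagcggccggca
Batf, chr6:111084467-111084716, plus strand: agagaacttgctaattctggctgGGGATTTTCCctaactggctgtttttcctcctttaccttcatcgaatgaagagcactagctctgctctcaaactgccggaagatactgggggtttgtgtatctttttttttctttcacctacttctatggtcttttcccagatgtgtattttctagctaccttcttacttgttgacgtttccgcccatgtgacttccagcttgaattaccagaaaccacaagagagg
Maff, chr7:112792537-112792786, plus strand: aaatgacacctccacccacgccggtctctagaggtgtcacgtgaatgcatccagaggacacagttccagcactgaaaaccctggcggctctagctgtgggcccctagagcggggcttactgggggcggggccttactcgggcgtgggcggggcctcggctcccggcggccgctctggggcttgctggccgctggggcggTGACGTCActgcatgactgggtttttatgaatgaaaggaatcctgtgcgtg
Sites were searched on both strands. The CRE lay 221 to 214 bases before the start of Jund and 51 to 44 bases before that of Maff. It was present in 1.59% of 33469 RefSeq promoter windows of the same length. The NF-kB site of Batf lay 227 to 218 bases before the start, and 6.33% of all windows held one. Neither the AP-1 site TGACTCA (4.05% of all windows) nor the serum response element (1.5%) was found in any of the 7 windows. Fos, Jun and Atf3 had no window among these. The CCAAT box, present in 34% of windows, was found in Junb and Jund, and TATAAA, present in 12.9%, in Junb and Fosb. The Fosb window overlaps the gene's own span, so its TATAAA match cannot be read as lying upstream of the whole gene. The guanine and cytosine content of the Fosl2 window was 70.4%, against a median of 51.2% over all windows, and that of Batf 43.2%. A match is a description of the letters, and no binding was measured.

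With DHC, 8 of the 10 AP-1 genes fell, Fosb rose and Fos did not pass the test. The ranges of the groups were apart for 9 of the 10. By limma on log2(RPKM + 1), with adjustment over all 10667 genes tested and a threshold of 0.05, 34.5% of genes were called in either direction, 16.1% as lower and 18.4% as higher, and 49.7% had groups that did not overlap, 21.6% with DHC lower and 28.1% with DHC higher. RPKM is reads per kilobase of exon, scaled to the total of the library, and fold values below are ratios of mean RPKM. The median log2 fold change was −0.47 over the members and 0.05 over all genes tested. Because library scaling moved the general split of calls, from 1968 higher and 1717 lower to 1285 higher and 2114 lower under scaling by trimmed means, the members were refitted under both scalings and kept 1 higher and 8 lower.

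**Figure D1:**
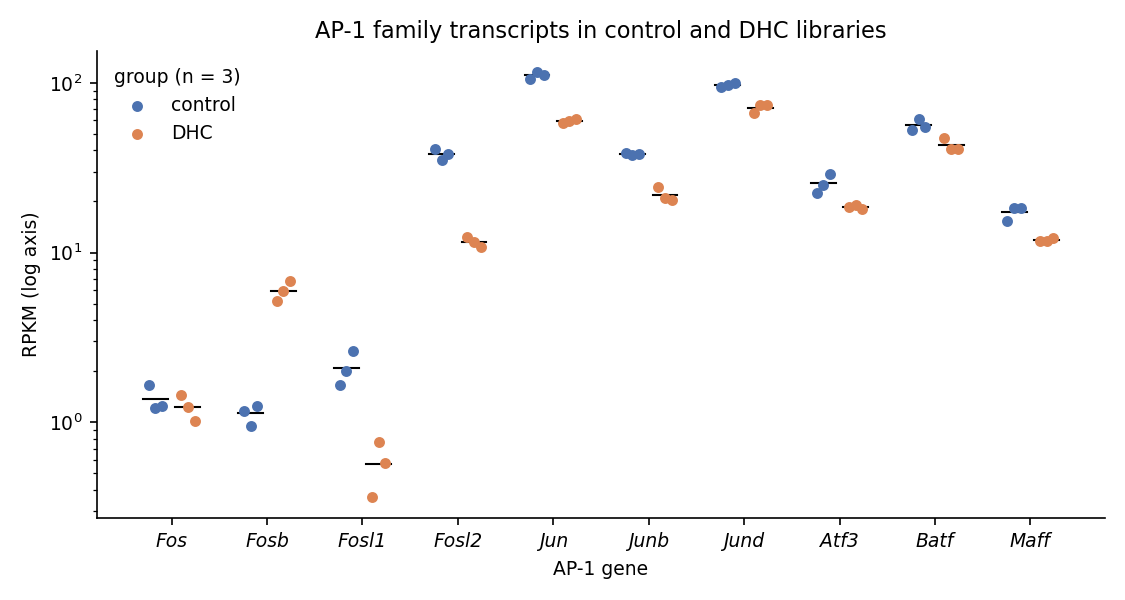
Each point is the RPKM of 1 library on a log axis for the 10 AP-1 genes, with control in blue and DHC in orange (3 libraries each) and a black line at the mean. Fosb sits higher with DHC, Fos overlaps between the groups, and the other genes sit lower.

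Libraries held 29084976 to 34170922 reads in control and 29190987 to 31299551 with DHC. A count of 3 reads corresponds to between 0.0878 and 0.103 RPM (reads scaled to the library total only), a floor that covers counting error only. The labels name the RBL-2H3 line and also give blood corpuscle as its cell type, so mast cell markers were checked. Of 12 listed mast cell and basophil markers, 9 had a row and 8 reached 1 RPKM on average. Their summed level was 1020 to 1050 RPKM in control and 705 to 731 RPKM in DHC libraries, and the markers moved in both directions. Most of the fall in the sum was that of Gata2, from 345 ± 10.3 to 69.9 ± 1.90 RPKM (SD, n = 3). Gata2, Il1rl1, Kit and Hdc were lower, and Ms4a2, the marker with the highest mean, was higher at 369 ± 10.0 than at 321 ± 15.9 RPKM (SD, n = 3; limma adjusted p = 0.0166). The call for Ms4a2 ended under scaling by trimmed means (0.0763) or by median-of-ratios factors (0.0608), and also when DHC replicate 3 (0.0591), DHC replicate 2 (0.0605) or control replicate 2 (0.0623) was left out. That for Hdc ended without control replicate 2 (0.0584), control replicate 3 (0.0545) or DHC replicate 2 (0.0674). Fcer1a, Fcer1g and Cpa3 did not pass the test. Of the markers of T cells, B cells, macrophages, neutrophils, erythroid cells, fibroblasts and epithelium, those with a row that reached 1 RPKM on average were Cd3e, Cd68, Epor, Col3a1 and Krt8. The summed T cell list was 31.8 to 37.7 RPKM in control and 40.7 to 43.9 RPKM with DHC, nearly all of it Cd3e. The mitochondrial share of reads was 3.28 to 3.47% in control and 3.85 to 4.08% with DHC. The part of the marker levels and of the mitochondrial share in the AP-1 differences was not tested. In such bulk samples, fewer cells of a type and less RNA per cell cannot be told apart.

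The FOS genes responded in opposite directions. Fosl2 encodes FRA-2, a FOS protein without the strong activation domain of FOS itself. It stood at 40.8, 35.0 and 37.8 RPKM in control and at 12.4, 11.5 and 10.8 RPKM with DHC. All DHC values lay far under the lowest control value, and the gene fell 3.28-fold (log2 fold change −1.63 ± 0.08, SE, n = 3 per group; limma adjusted p = 1.3e-05). Of the 10667 genes tested, 36 had a larger fall on this scale. Fosl2 lies on chromosome 6, 25598936 to 25616995, minus strand, of the rat build Rnor_6.0, which is the build of all gene positions given for the table. Its model there holds 16 exon blocks, 13 neighbouring pairs of which are parted by under 10 bases, and a summed exon length of 744 bases. Its RPKM rests on this short length and on 757 to 962 reads in control and 235 to 273 reads with DHC. Its level beside other genes thus depends on the length of the model, while the ratio of mean RPKM between groups does not. The log2 fold change depends on that length through the pseudocount, and was −1.70 with a pseudocount of 0.1.

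Fosb encodes FOSB, a FOS protein best known from neurons, where a shortened splice form accumulates. The deposited values sum all exons of the gene (chromosome 1, 80214494 to 80221710, minus strand) and do not separate splice forms. Control values were 1.17, 0.956 and 1.25 RPKM and DHC values 5.18, 5.94 and 6.78 RPKM. Every DHC library lay well above the highest control library, on 575 to 740 reads against 104 to 160. Fosb rose 5.30-fold (log2 fold change 1.71 ± 0.12, SE, n = 3 per group; limma adjusted p = 5.89e-05), and 14 tested genes had a larger rise. The pseudocount of 1 understates this change, which was 2.31 on the log2 scale with a pseudocount of 0.1 and 2.39 with limma-voom on recovered reads.

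Fosl1 encodes FRA-1, the other FOS protein that lacks a strong activation domain. It was at 1.65, 2.01 and 2.64 RPKM in control and 0.365, 0.768 and 0.577 RPKM in DHC libraries. The groups did not overlap, although the values rest on only 84 to 150 reads in control and 18 to 40 reads with DHC. Fosl1 (chromosome 1, 220826560 to 220835066, plus strand) fell 3.68-fold (log2 fold change −0.98 ± 0.16, SE, n = 3 per group; limma adjusted p = 0.00348). It passed the filter of a mean of 1 RPKM through its control values, and with no filter its adjusted p was 0.0109. The log2 change was −1.74 with a pseudocount of 0.1 and −1.90 with limma-voom, against −1.70 and −1.71 for Fosl2, so which of the pair fell further depends on the scale.

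Fos, the founding member and the classic immediate early gene, was low in every library. Its values were 1.65, 1.21 and 1.25 RPKM in control and 1.44, 1.23 and 1.01 RPKM with DHC, on 47 to 80 reads. The groups overlapped, and the log2 difference of −0.09 had a 95% confidence interval from −0.40 to 0.22 (limma adjusted p = 0.637). A difference was thus not detectable at this depth, and changes within that interval are not excluded by it. The interval is on the log2(RPKM + 1) scale, where the pseudocount of 1 shrinks changes at so low a level. With a pseudocount of 0.1 the difference was −0.15, and with limma-voom −0.16. Changes in RPKM somewhat larger than the interval are therefore not excluded either. Fos (chromosome 6, 109300433 to 109303299, plus strand) and Batf (109562587 to 109584545, plus strand) lie 259 kb apart, with 2 other listed genes between them, 1 of which is Jdp2, another bZIP gene. Jdp2 encodes a repressor that pairs with JUN. It was at 182 to 198 RPKM in control and 171 to 180 RPKM in DHC libraries, a difference that did not pass the test (limma adjusted p = 0.0887).

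**Figure D2:**
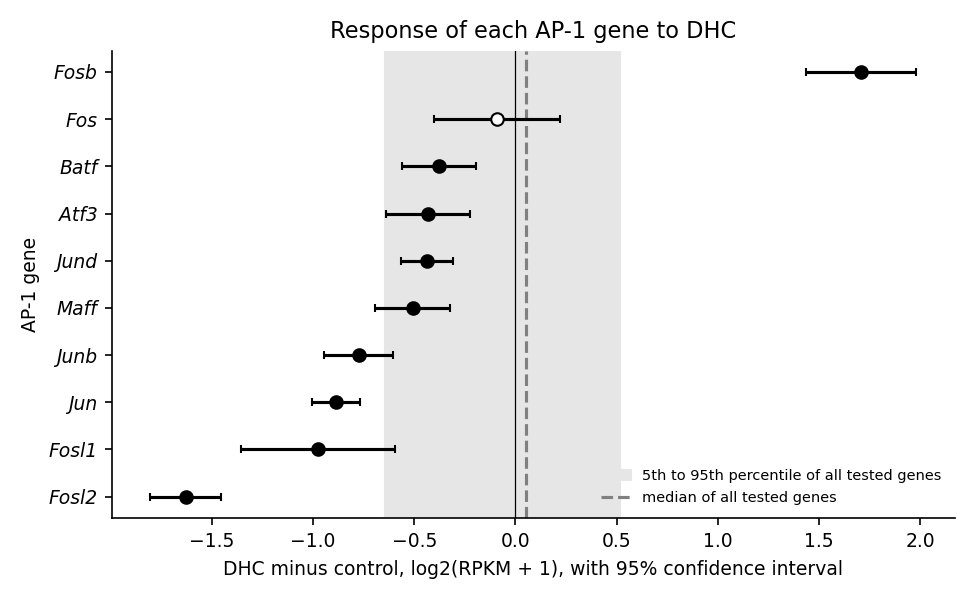
Points give the DHC minus control difference in log2(RPKM + 1) for each AP-1 gene with its 95% confidence interval, filled where the limma adjusted p is under 0.05. The grey band spans the 5th to 95th percentile of all tested genes, −0.65 to 0.51, and the dashed line their median of 0.05; Fosb lies above the band, and Fosl2, Fosl1, Jun and Junb lie below it.

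Summed over the 4 FOS genes, RPKM was 45.3, 39.2 and 43.0 in control and 19.4, 19.4 and 19.2 with DHC, a 2.20-fold lower mean. The sum is dominated by Fosl2, which made up 89.2% ± 1.06 of it in control and 59.8% ± 3.79 with DHC (SD, n = 3). The share of Fosb was 2.65% ± 0.241 in control and 30.9% ± 4.28 with DHC. Fos made up 3.22% ± 0.377 and 6.35% ± 1.09, and Fosl1 4.97% ± 1.25 and 2.95% ± 1.03. A share also moves when the other genes of the sum change: that of Fos was higher with DHC although Fos itself went from 1.37 to 1.23 RPKM without passing the test. Both the shares and the change of the sum depend on the exon length of each model, that of Fosl2 above all.

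The ratio of Fosb to Fosl2 was 0.0287, 0.0273 and 0.0331 in control and 0.419, 0.516 and 0.626 with DHC. Its groups were far apart, and the log2 ratio was higher by 4.12 with DHC. Ratios between members were tested for all 9 pairs within the FOS and within the JUN genes by exact two-sided permutation over the libraries. For 7 of the 9 pairs, Fosb to Fosl2 included, the exact p was 0.1, and 0.129 after adjustment over the 9. An exact p of 0.1 is the smallest that 3 against 3 libraries can give. No pair could therefore pass 0.05, and this p marks only ratios whose groups did not overlap. How often ratios of other gene pairs do so was not computed, and 49.7% of single genes tested had groups that did not overlap. For Fosl1 to Fosl2 the groups overlapped (exact p = 0.6), with a mean ratio of 0.0559 ± 0.0147 in control and 0.0499 ± 0.0189 with DHC (SD, n = 3). With so few libraries this test cannot decide whether those genes fell alike, and Fosl1 rests on 18 to 40 reads with DHC.

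**Figure D3:**
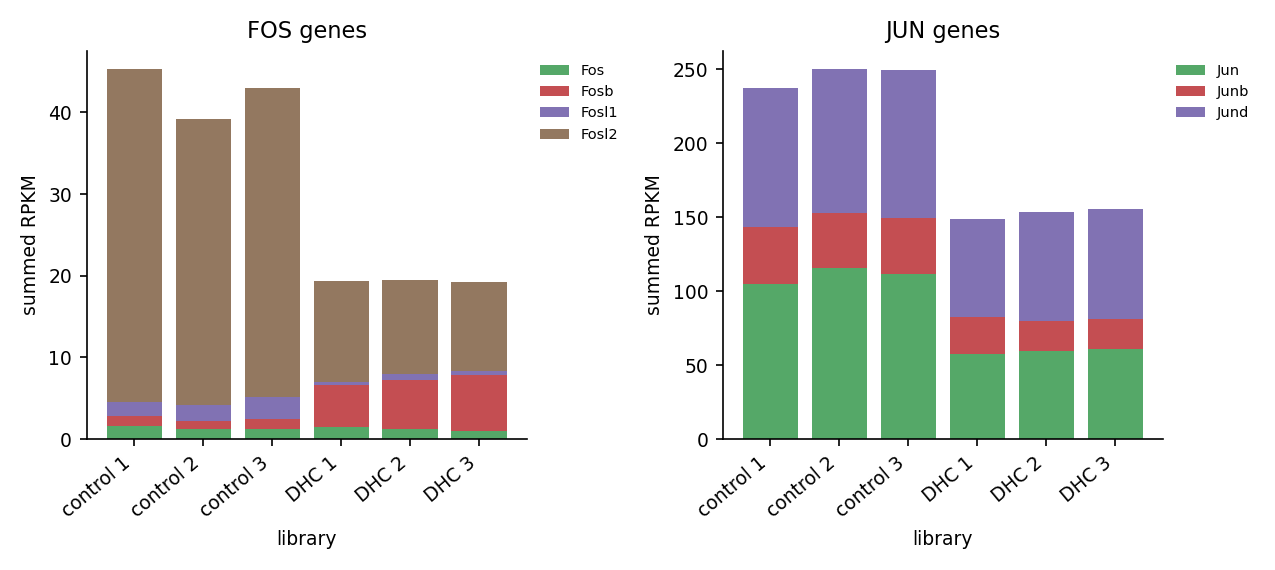
Stacked bars give summed RPKM of the 4 FOS genes (left) and the 3 JUN genes (right) in each of the 6 libraries, starting at 0. Fosl2 fills most of the FOS bar in control, Fosb fills 30.9% of it on average with DHC, and both sums are lower with DHC.

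All 3 JUN genes fell, by 1.36- to 1.86-fold. Jun encodes c-JUN, the main transactivating partner of FOS proteins and the substrate of the JNK kinases. It was at 105, 116 and 111 RPKM in control and 57.7, 59.3 and 60.9 RPKM with DHC. The groups were well separated, with a 1.86-fold fall (log2 fold change −0.89 ± 0.05, SE, n = 3 per group; limma adjusted p = 2.73e-05). Junb encodes JUNB, a weaker activator that can restrain c-JUN. It was at 38.7, 37.3 and 38.3 RPKM in control and 24.5, 20.8 and 20.5 RPKM with DHC. The control values lay close together, all above the DHC values, and Junb fell 1.74-fold (log2 fold change −0.77 ± 0.07; limma adjusted p = 0.000242). Jund encodes JUND, which is present in many resting cells. It was at 94.0, 96.9 and 99.7 RPKM in control and 66.4, 73.6 and 74.1 RPKM with DHC, 1.36-fold lower without overlap (log2 fold change −0.44 ± 0.06; limma adjusted p = 0.001).

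Each of the 3 JUN genes is a single exon block in the table: Jun on chromosome 5, 114011189 to 114014277, Junb on chromosome 19, 26092974 to 26094756, and Jund on chromosome 16, 20485029 to 20486707, all on the minus strand. Summed JUN RPKM was 245 ± 7.19 in control and 153 ± 3.56 with DHC (SD, n = 3), a 1.61-fold lower mean. Jund made up 39.5% ± 0.629 of the sum in control and 46.7% ± 1.79 with DHC, and Jun 45.0% ± 1.15 and 38.9% ± 0.293 (SD, n = 3). The share of Jund was higher with DHC although Jund itself fell, as Jun and Junb fell further. These shares depend on the exon lengths of the models too. The ratio of Jun to Jund was 1.11, 1.19 and 1.12 in control and 0.870, 0.806 and 0.822 with DHC. Per kilobase of exon, Jun was thus the higher of the pair in every control library and Jund in every DHC library. That order rests on exon lengths of 3089 bases for Jun and 1679 for Jund. In reads Jun was the higher in every library, with 5292 to 5732 against 3308 to 3866 with DHC. The ratio of Jun to Jund had the smallest exact two-sided permutation p of 0.1 (0.129 adjusted over the 9 ratios). The ratio of Jun to Junb, 2.90 ± 0.199 in control and 2.73 ± 0.326 with DHC (SD, n = 3), overlapped between the groups (exact p = 0.6). The JUN sum was 5.81 ± 0.574 times the FOS sum in control and 7.89 ± 0.212 times with DHC (SD, n = 3). Its change between groups also depends on the exon lengths of the models, above all the short one of Fosl2.

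The remaining bZIP members, Atf3, Batf and Maff, fell 1.31- to 1.46-fold. Atf3 encodes a stress-induced factor that represses transcription when paired with itself. Its values were 22.5, 25.0 and 29.0 RPKM in control and 18.6, 19.0 and 18.1 RPKM with DHC. Control libraries varied more than DHC libraries without overlapping them, and Atf3 (chromosome 13, 109817728 to 109849632, minus strand) fell 1.37-fold (log2 fold change −0.43 ± 0.09, SE, n = 3 per group; limma adjusted p = 0.00854). Batf encodes a bZIP protein of lymphoid and myeloid cells that lacks an activation domain and acts with JUN and IRF proteins. It was at 53.0, 61.1 and 54.9 RPKM in control and 47.6, 41.0 and 40.8 RPKM with DHC. The DHC library nearest to control was replicate 1, and the fall was 1.31-fold (log2 fold change −0.38 ± 0.08; limma adjusted p = 0.00898). Maff encodes a small MAF protein, which has a zipper but no activation domain. It was at 15.3, 18.4 and 18.3 RPKM in control and 11.7, 11.6 and 12.1 RPKM with DHC, a 1.46-fold fall without overlap (chromosome 7, 120580743 to 120592095, plus strand; log2 fold change −0.51 ± 0.08; limma adjusted p = 0.00261).

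Per kilobase of exon, Jun had the highest mean RPKM of the 10 in control, followed by Jund, Batf, Junb, Fosl2, Atf3, Maff, Fosl1, Fos and Fosb. In that order the library values of Junb and Fosl2 overlapped, as did those of Fos and Fosb. With DHC the order was Jund, Jun, Batf, Junb, Atf3, Maff, Fosl2, Fosb, Fos and Fosl1, and Maff and Fosl2 were the only neighbours whose values overlapped. Jun exceeded 91.7% of tested genes on average in control and 85.4% with DHC, Fosl2 78.3% and 50.9%, and Fosb 3.84% and 34.1%. The sum over all 10 members was 373, 394 and 394 RPKM in control and 246, 245 and 246 RPKM with DHC, 1.58-fold lower.

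The genes whose values over the 6 libraries were most like those of Fosb, by Pearson's r of log2(RPKM + 1) among genes averaging 5 RPKM or more, were Pgm3, an enzyme of amino sugar synthesis (r = 0.999, 1.70-fold higher with DHC), Polr3gl, a subunit of RNA polymerase III (0.999, 1.33-fold), and Polr2b, a subunit of RNA polymerase II (0.999, 1.44-fold). For Fosl2 they were Gpr171, a G protein-coupled receptor (r = 0.999, 3.44-fold lower with DHC), Adarb1, an RNA-editing enzyme (0.999, 1.33-fold lower), and Rgs2, a regulator of G protein signalling (0.999, 8.09-fold lower). The 6 points share the group difference, and r was over 0.95 for 506 of 6632 genes with Fosb and for 724 of 6631 with Fosl2.

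Genes around AP-1 were grouped in 5 lists, drawn up with earlier results of these libraries known, so a list's direction is not independent evidence. Of 33 other bZIP genes, 25 were tested, 13 fell and 4 rose, against 16.1% lower and 18.4% higher among all genes tested, with a median log2 fold change of −0.22. Ddit3, which encodes the stress factor CHOP, fell 1.47-fold from a mean of 1337 RPKM (log2 fold change −0.56, limma adjusted p = 0.00014). Nfe2l1, a regulator of proteasome genes, fell from 125 ± 0.693 to 81.4 ± 4.45 RPKM (SD, n = 3). Batf3, the closest relative of Batf in the list, stood at 39.5, 41.4 and 36.1 RPKM in control and fell to 27.0, 24.1 and 27.5 RPKM, 1.49-fold. Mafg, a small MAF gene like Maff, fell from 128 ± 1.01 to 99.1 ± 3.97 RPKM, and Nfe2, a blood-cell partner of small MAF proteins, from 6.13 ± 0.821 to 2.71 ± 0.519 RPKM. Atf5 rose from 9.73 ± 1.27 to 15.1 ± 1.02 RPKM. The limma adjusted p of these 6 lay between 0.000116 for Nfe2l1 and 0.00322 for Atf5.

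**Figure D4:**
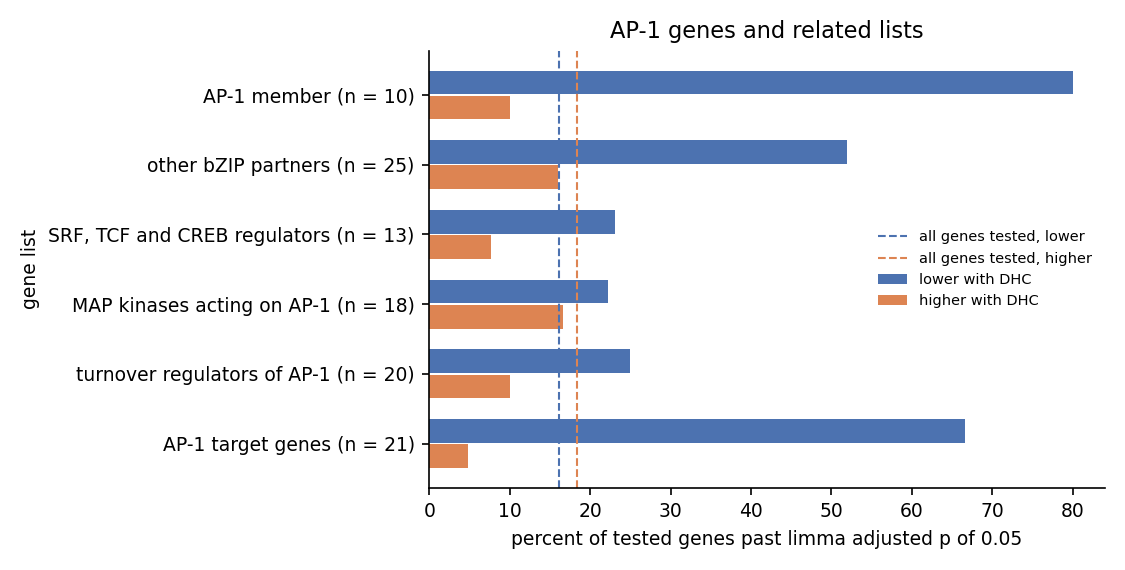
Bars give the percent of tested genes of the AP-1 family and of the 5 related lists that were lower (blue) or higher (orange) with DHC at a limma adjusted p under 0.05, and dashed lines give the shares over all 10667 genes tested, 16.1% and 18.4%. Bars for lower genes reach 80.0% for the family, 66.7% for the target list and 52.0% for other bZIP genes.

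Of 46 genes listed as AP-1 targets, 36 had a row, 21 were tested, 14 fell and 1 rose (66.7% and 4.76%, against 16.1% and 18.4% of all genes tested; median log2 fold change −0.51). Several of these genes were known beforehand to differ here. Ptgs2, the inducible cyclooxygenase, went from 69.3, 62.0 and 66.6 RPKM to 14.8, 11.9 and 12.5 RPKM, a 5.06-fold fall, and Ccl2, a chemokine, from 51.3, 46.5 and 46.5 RPKM to 11.0, 10.1 and 10.3 RPKM, a 4.61-fold fall. Fhl2, a LIM-domain cofactor, fell from 17.3, 21.4 and 18.8 RPKM to 4.32, 3.34 and 3.94 RPKM. In none of these genes did the groups overlap. Il1rl1, the interleukin-33 receptor, fell from 48.5 ± 2.75 to 14.9 ± 0.119 RPKM, and Gadd45a, a stress-response gene, from 1452 ± 110 to 319 ± 52.4 RPKM (SD, n = 3). Gadd45b, its relative, was the 1 that rose, from 13.3 ± 1.15 to 44.1 ± 2.01 RPKM. The limma adjusted p of these 6 was at most 1.73e-05. The list holds genes that other factors also act on, and binding of AP-1 was not measured.

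Among 13 tested genes of SRF, ternary complex factors (TCF) and CREB cofactors, which act on the FOS promoter, and of MEF2 factors, 3 fell and 1 rose (median 0.00 on the log2 scale). That is 30.8% called, a share near the 34.5% of all genes tested. Elk3, a TCF that can repress, fell from 19.7, 15.9 and 16.1 RPKM to 5.61, 4.20 and 4.60 RPKM, 3.58-fold (limma adjusted p = 6.86e-05). Mkl1, an actin-regulated cofactor of SRF, fell from 33.0 ± 2.30 to 19.1 ± 1.15 RPKM (SD, n = 3; limma adjusted p = 0.000231). Srf itself rose from 3.23 ± 0.502 to 4.73 ± 0.577 RPKM (limma adjusted p = 0.0267) and Mef2d fell 1.16-fold (0.0253). The call for Srf ended under 5 alternatives, with limma adjusted p from 0.0598 without control replicate 2 to 0.0925 without DHC replicate 2, the others being no filter, without control replicate 1 and without both libraries numbered 1. That for Mef2d also ended under 5, with 0.0547 without both libraries numbered 1, 0.0568 without control replicate 1, 0.0582 without control replicate 2, 0.0605 without DHC replicate 2 and 0.0836 without DHC replicate 3. The count of 4 genes was 2 without control replicate 1, without DHC replicate 2 or without both libraries numbered 1, 7 with limma-voom and 8 with a replicate block.

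Of 18 tested genes of the MAP kinase routes to AP-1, 4 fell and 3 rose, with a median of −0.08 on the log2 scale. The 38.9% called is near the 34.5% of all genes tested. Map3k5, a stress-activated kinase at the top of the JNK and p38 routes, fell from 19.3 ± 1.06 to 11.2 ± 0.946 RPKM (SD, n = 3; limma adjusted p = 0.000356). Mapkapk2, a kinase below p38, fell from 63.7 ± 5.26 to 45.1 ± 3.08 RPKM, and Map2k7, which activates JNK, from 151 ± 7.79 to 127 ± 4.92 RPKM. Map2k5 rose 1.42-fold from 12.0 ± 0.475 RPKM and Map2k1, which activates ERK, from 54.5 ± 1.75 to 69.8 ± 2.33 RPKM. Mapk9, which encodes JNK2, rose from 6.62 ± 0.277 to 8.26 ± 0.188 RPKM (limma adjusted p = 0.0155, but 0.0609 without DHC replicate 2 and 0.0553 without control replicate 2).

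Of 20 tested genes that act on the turnover of AP-1 transcripts or proteins, 5 fell and 2 rose (median −0.02), a called share of 35% that is near the 34.5% of all genes tested. Zfp36l2 and Zfp36l1, which bind AU-rich elements of unstable transcripts, fell from 24.5 ± 1.64 to 11.6 ± 0.754 RPKM and from 16.3 ± 0.877 to 10.9 ± 0.749 RPKM (SD, n = 3). Hnrnpd, which encodes the AU-rich element protein AUF1, fell from 200 ± 11.9 to 155 ± 5.57 RPKM and Btg1 from 65.0 ± 1.61 to 48.4 ± 2.02 RPKM. Fbxw7, a ubiquitin ligase subunit for which c-JUN is a substrate, fell 1.21-fold (limma adjusted p = 0.0216). Its call ended when any of 4 libraries was left out: control replicate 2 (0.0674), DHC replicate 2 (0.0718), control replicate 3 (0.0543) and DHC replicate 3 (0.065). Csnk2a1, a casein kinase subunit, rose 1.20-fold (limma adjusted p = 0.0152).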

How the data were processed

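Total RNA of 6 samples was sequenced, per the labels' protocols. Per the submitters' processing notes, reads were handled with edgeR 3.12.1, Subread 1.5.1 (featureCounts) and Trimmomatic 0.36 on build Rnor_6.0, in no stated order. Which aligner, annotation release and strand setting were used is not given in the sources used here. No member shares exon bases with another gene of the table. The deposited values are RPKM, found from the values: multiplied by exon length and library total, 100% of them fall within 0.01 of a whole number of reads, so reads were recovered. The deposited exon lengths are in bases. Libraries are scaled by their totals alone.

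The main test was limma 3.58.1 in R 4.3.3 with a trended variance on log2(RPKM + 1), on the 10667 genes averaging 1 RPKM or more, with no term but group, and p-values adjusted over all of them by Benjamini-Hochberg. It was tested on simulated data with known fold changes. That simulation gave all genes the same dispersion and changed far fewer genes than were called here, so it does not speak to the calls of the members. The members, lists and tests were chosen with earlier results of these data known. All 10 members were named, with up to 6 called genes of lowest p per list and the 3 genes of highest r for the members with the largest rise and fall on that log2 scale. Symbols that are only identifiers were left out of the last. Alternatives were other scalings, pseudocounts and filters, limma-voom, a replicate block, and leaving out libraries.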

Additional observations from a re-analysis of the deposited data

How the results depend on the processing

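The 10 AP-1 genes were refitted under 16 alternatives, 157 fits in all, and each kept its direction and its side of the threshold. The filter of a mean of 5 RPKM left 7 members, all lower, and did not test Fos, Fosb and Fosl1. Over the alternatives, Fosl2 lay between −1.71 and −1.57 on the log2 scale, Jun between −0.95 and −0.85, and Batf, with the highest adjusted p of the called members, between −0.49 and −0.32 (limma adjusted p up to 0.0398). Fos lay between −0.16 and −0.01. For the 5 related lists, 75 of 80 refitted counts stayed within 1.5 times the main count, the other 5 being those of the SRF list. Over all genes, 3685 were called, 2472 to 3307 without 1 library, and 4333 with a replicate block, under which the members stayed at 9. Same-numbered libraries had correlations of deviations from their group means of 0.228, −0.0495 and 0.0828, against −0.183 to 0.106 between libraries of different number. The highest value was thus that of the libraries numbered 1, and whether those share a batch was not tested. The labels state no pairing, and the numbers were not taken to pair the samples. On recovered reads limma-voom was run, and a quasi-likelihood count test, fixed in the plan as well, was not. Depth limits Fos and Fosl1, with 47 to 80 and 18 to 150 reads per library.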
